A study of Daphnia magna with 36 samples.

Results

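The 100 probes described here had negative log ratios in Daphnia magna exposed to either of 2 forms of zinc at the LC25, and ratios nearer 0 under silica nanoparticles at the same level of toxicity. They were chosen from the LC25 arrays. Arrays of one exposure were averaged, each probe's median over the exposures of a group was taken, and 5664 of the 7680 probes on the array were eligible because they had a value in at least 3 exposures of each LC25 group. A member had a median of -0.2 or lower under zinc oxide nanoparticles (ZnO NP) and under zinc sulphate (ZnSO4), and an absolute median under 0.2 under silica nanoparticles (SiO2 NP). The rule was met by 163 probes, and the 100 whose less negative zinc median was lowest were kept. Negative medians past that limit in both zinc groups, whatever the SiO2 NP median, occurred at 251 eligible probes. The mirror rule for positive medians was met by 109 probes. With an absolute SiO2 NP median under 0.2 as in the rule, 231 were past the limit with opposite signs in the 2 zinc groups.

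The arrays came from whole female daphnids that were 10 days old, with 16 animals pooled per RNA sample, exposed for 24 h at 25 °C. The groups were ZnO NP at 2.2 mg/L (1/10 LC50, 4 exposures) and 9.0 mg/L (LC25, 4 exposures), ZnSO4 at 0.13 mg/L (3 exposures) and 0.91 mg/L (5 exposures), and SiO2 NP at 1.4 mg/L (3 exposures) and 5.1 mg/L (4 exposures), named SiO in the titles. Each group had 6 arrays, on which exposed RNA in one dye was set against RNA of unexposed animals labelled with the other. LC50 and LC25 are concentrations set by the percentage of animals they kill, so the toxicants were matched by toxicity and not by mass.

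Daphnia magna, a freshwater crustacean and filter feeder, takes up dissolved metal and also swallows suspended particles. ZnO particles release zinc ions in water, ZnSO4 supplies those ions directly, and silica particles carry no zinc. Animals bind excess zinc with metallothioneins and move it with zinc transporter proteins. Probes carry plate positions as identifiers. No gene is paired with them in the files and 0 identifiers were found in the organism's gene table, so no member could be assigned to these or other proteins and no sequence is shown.

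The unit throughout is the deposited log ratio between exposed and unexposed RNA, read as log2. The sources used here do not give which RNA is the numerator. A negative value therefore means lower in exposed animals if exposed RNA is the numerator and higher if it is not. The deposited direction was taken to be one and the same on all arrays. Among arrays of different exposures, those with exposed RNA in the same dye correlated below -0.3 over all probes in 5 of 310 pairs (lowest r -0.520). Those of opposite dyes did so in 16 of 307 pairs (lowest r -0.563). The swapped arrays of one exposure correlated over all probes at 0.57 and 0.71 under ZnO NP at the LC25, and at 0.49 under ZnSO4. Of all 13 swapped pairs, 4 correlated negatively (lowest r -0.298). This direction is an assumption that was not tested. If the deposited values are Cy5 over Cy3 on every array, each array with exposed RNA in Cy3 changes sign, and values under that reading are given where it turns a group's direction. Between 46.7% and 90.5% of probes had a value per array, and all 4 arrays under 60% belonged to the LC25 zinc groups. In bulk RNA from whole animals, fewer cells of a type and less RNA per cell cannot be told apart. Whether groups or exposures shared unexposed RNA is not given in these sources.

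At the LC25 the members' values are a description, since they chose the members. The median over the members was -0.56, -0.40, -0.32 and -0.41 in the 4 ZnO NP exposures. It was -0.44, -0.52, -0.29, -0.30 and -0.43 in the 5 ZnSO4 exposures, and -0.09, -0.04, 0.06 and -0.10 in the 4 SiO2 NP exposures. All zinc exposures lay below every SiO2 NP exposure. The mean exposure median was -0.42 ± 0.10 for ZnO NP (SD, n = 4) and -0.39 ± 0.10 for ZnSO4 (SD, n = 5), against -0.04 ± 0.07 for SiO2 NP (SD, n = 4). A median leaves room for single exposures of the other sign. Among members valued in every exposure, 24 of 59 were negative in all 4 ZnO NP exposures and 29 of 81 in all 5 ZnSO4 exposures, against 9.32% and 5.39% of eligible probes. In the 4 SiO2 NP exposures 3 of 90 were negative throughout, against 12.8%, and nothing is read from these shares because the rule used them. The fourth ZnO NP exposure, a single array with values for 46.7% of all probes, had a value for 60 of the 100 members. In swapped pairs some members had a value on 1 of the 2 arrays. They numbered 19 and 34 in ZnO NP exposures 2 and 3, and 18 in ZnSO4 exposure 4.

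**Figure D1:**
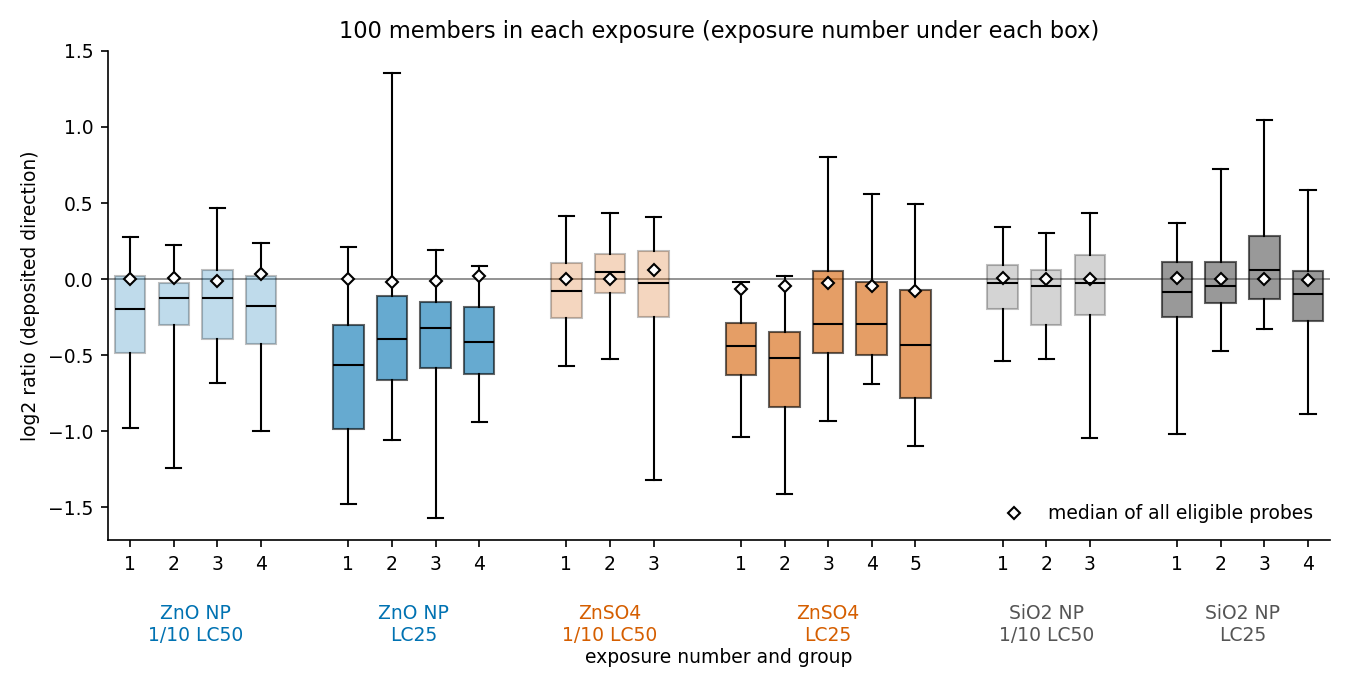
Log2 ratio (deposited direction) of the members in each of the 23 exposures. Boxes span the quartiles with the median as a line, whiskers reach the 5th and 95th percentiles of the members, diamonds give the median of all eligible probes and the number under each box is the exposure. Medians of the LC25 zinc exposures, which chose the members, lie between -0.56 and -0.29, and those of the 4 ZnO NP exposures at 1/10 LC50, which did not, between -0.19 and -0.12.

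The edge of the choice shows how fine the ranking was. The last members inside, P3BD11 and A1N8, both had a less negative zinc median of -0.249, and the first eligible probes outside, P12AB8 and P2CF5, both had -0.248. P3BD11 also shows how far a mean can lie from the median that chose a probe. Its 5 ZnSO4 exposures at the LC25 gave -0.33, 0.55, -0.32, -0.27 and 0.18, with a median of -0.27 and a mean of -0.04.

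The exposures at 1/10 LC50 took no part in the choice and are where the members could be tested. Under ZnO NP at this level most members were negative again, though none passed the test. The member median was -0.19, -0.13, -0.12 and -0.18 in the 4 exposures, with a mean of -0.15 ± 0.04 (SD, n = 4). All 4 exposures lay below 0, and between 65.3% and 77.3% of valued members were negative in each, against 45.5% to 52.1% of eligible probes. By their mean over exposures, 78 of 97 members were negative (80.4%), against 47.8% of eligible probes. The mean reached -0.2 or lower at 46 of 97 members (47.4%), against 8.9% of eligible probes, and 0.2 or higher at 1 member, against 8.95%. Of 94 members valued in every exposure, 33 (35.1%) were negative in all 4, against 6.91% of eligible probes, and 3 were positive in all 4, against 8.86%.

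The negative shift under ZnO NP at 1/10 LC50 was present in both dyes under the deposited direction. The 2 arrays with exposed RNA in Cy5 had member medians of -0.28 and -0.15, and the 4 arrays with exposed RNA in Cy3 had medians between -0.18 and -0.12. All 6 arrays were negative. When values are read as Cy5 over Cy3 the 4 Cy3 arrays change sign, and the mean exposure median becomes 0.06. Negative means then occur at 27 of 97 members (27.8%), against 52.5% of eligible probes. In the fit, which has the dye term, negative fitted values then occur at 64 of 96 (66.7%), against 54.1% of all probes. Single probes were less steady than the set. In the first dye-swapped exposure, 45 of 94 members valued on both arrays (47.9%) were negative on both, against 21.2% of eligible probes, and in the second 51 of 95 (53.7%), against 26.2%. The log ratios of the swapped arrays correlated over the members at r = 0.37 in the first exposure (94 members) and r = 0.81 in the second (95 members), and over eligible probes at -0.20 and 0.40. This was not particular to ZnO NP. Under SiO2 NP at 1/10 LC50, 31.9%, 40.9% and 35.4% of members were negative on both arrays, against 19.6%, 23.5% and 20.5% of eligible probes. Under ZnSO4 the shares were 41.7%, 29.2% and 34.4%, against 21.3%, 24.3% and 16.1%. In ZnSO4 exposure 2, 46.9% were positive on both, against 26.2%. Member r was 0.08, 0.67 and 0.72 under SiO2 NP, and 0.30, 0.72 and 0.73 under ZnSO4. The points of each correlation share 1 pair of arrays.

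**Figure D2:**
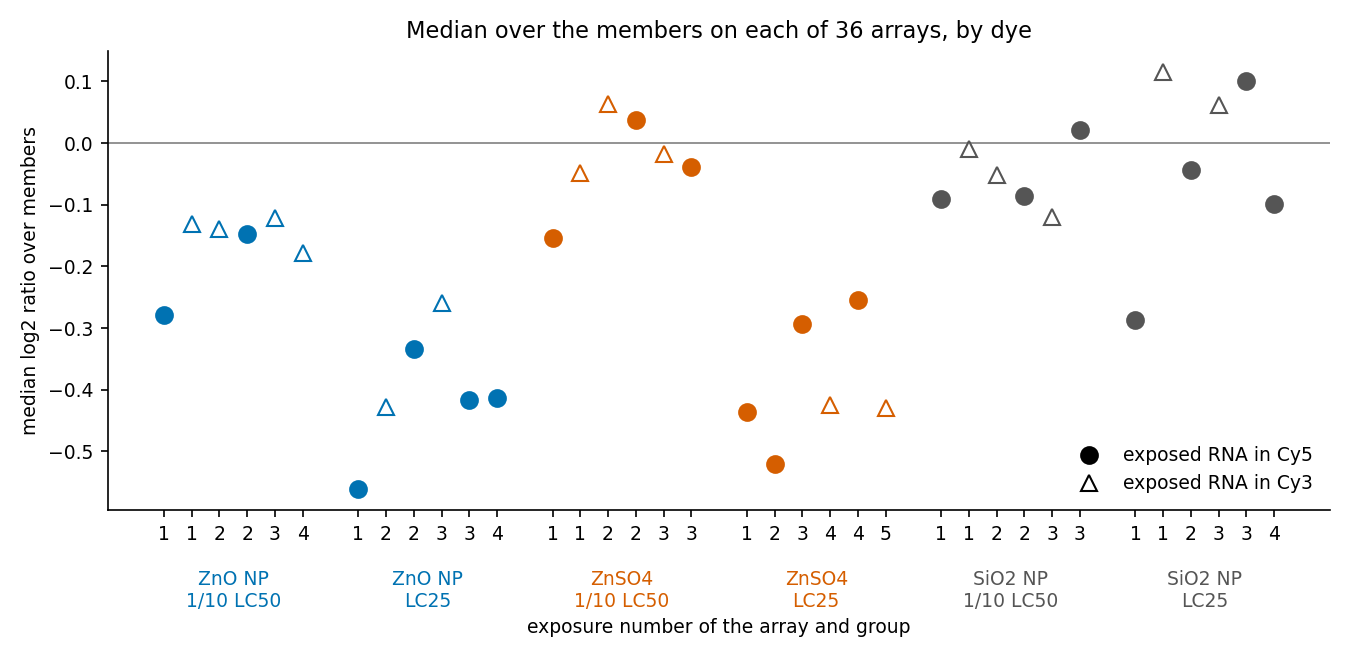
Median log2 ratio over the members on each of the 36 arrays, by group and exposure number. Filled circles are arrays with exposed RNA in Cy5 and open triangles those with exposed RNA in Cy3. All 6 ZnO NP arrays at 1/10 LC50 lie below 0 in both dyes, while the SiO2 NP arrays at the LC25 lie between -0.29 and 0.12.

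In the fit over all probes, limma tested the 5495 probes that each group had measured in 2 or more exposures, among them 96 of the 100 members. At an adjusted p under 0.05 (limma, Benjamini-Hochberg over all probes tested), 0 of 96 members were called under ZnO NP at 1/10 LC50, where the share called among all probes was 0.0%. At an unadjusted p under 0.05, 21 members were negative, against 2.29% of all probes tested. Positive at that limit were 1 of 96 members and 137 of all 5495 probes. Fitted values were below 0 at 76 of 96 members, against 47.7% of all probes, with a median fitted value of -0.21 over the members and 0.01 over all probes. The lowest adjusted p among members in limma's fit belonged to P6DC6, at 0.333, with a fitted log2 ratio of -0.76 ± 0.16 (SE). The precision was limited: the median 95% confidence interval of a fitted ratio in this group reached 0.34 to either side. The spread and the dye term of this fit were estimated from all 6 groups, and so in part from the arrays that chose the members. With the 3 groups at 1/10 LC50 fitted alone, 74 members (77.1%) lay below 0, against 49.5% of 6485 probes, and none was called. Of these, 19 had an unadjusted p under 0.05, which is 19.8% of the 96 members tested, against 3.28% of all probes in that fit.

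Under ZnSO4 at 1/10 LC50 the members lay closer to 0, and their exposures did not share a sign. The member median was -0.08, 0.04 and -0.02 in the 3 exposures, with a mean of -0.02 ± 0.06 (SD, n = 3). Exposures 1 and 3 were below 0 and exposure 2 was above it. By their mean, 62 of 98 members were negative (63.3%), against 43.4% of eligible probes, and 22 of 98 (22.4%) reached -0.2 or lower, against 8.54%. Of 96 members valued in all 3 exposures, 15 (15.6%) were negative in every one, against 9.96% of eligible probes, and 9 were positive in every one, against 15.9%. In the fit, 0 of 96 members were called (limma, adjusted p), against 0.0182% of all probes. At an unadjusted p under 0.05, 0 members were negative, against 1.22% of all probes, and 60 of 96 fitted values lay below 0, against 43.3%. Read as Cy5 over Cy3 the members lay near the shares of other probes. Negative means then occurred at 54 of 98 (55.1%), against 54.7% of eligible probes. Fitted values below 0 occurred at 53 of 96 (55.2%), against 54.9% of all probes.

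Under SiO2 NP at 1/10 LC50, which carry no zinc, negative means also outnumbered positive ones. The member median was -0.03, -0.05 and -0.02 in the 3 exposures, with a mean of -0.03 ± 0.01 (SD, n = 3). By their mean, 73 of 99 members were negative (73.7%), against 48.7% of eligible probes, and 25 of 99 (25.3%) reached -0.2 or lower, against 6.35%. Negative values in all 3 exposures occurred at 9 of 97 members (9.28%), against 11.3% of eligible probes, and positive values in all 3 at 7, against 12.4%. In the fit, 0 of 96 members were called (limma, adjusted p), where the share of all probes was 0.0%, and 2 had a negative ratio at an unadjusted p under 0.05, against 0.419%. Fitted values lay below 0 at 70 of 96 members, against 48.4% of all probes. This direction turns when values are read as Cy5 over Cy3: 42 of 96 fitted values (43.8%) lay below 0, against 52.5% of all probes, and the mean exposure median was 0.01.

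The members also varied more between exposures than eligible probes did. The median SD of a member between exposures at 1/10 LC50 was 0.27 under ZnO NP, 0.23 under ZnSO4 and 0.26 under SiO2 NP, against 0.21, 0.17 and 0.14 over eligible probes in the same order of groups. Means of 0.2 or higher occurred at 3 members under ZnSO4, against 6.12% of eligible probes, and at 2 under SiO2 NP, against 4.45%.

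**Figure D3:**
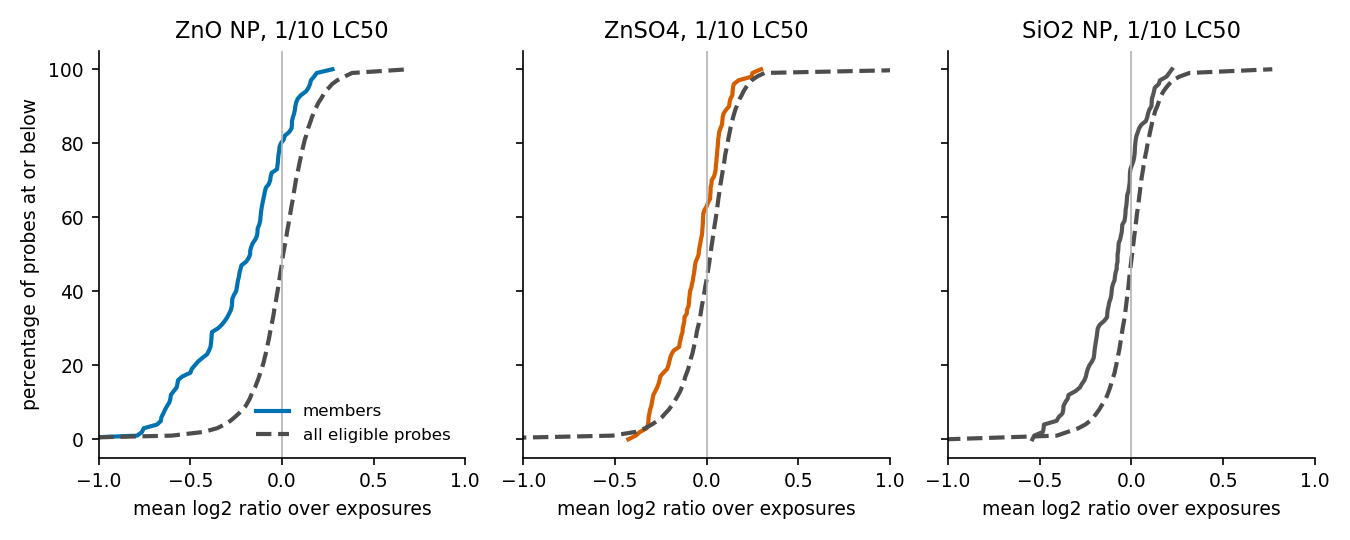
Percentage of probes at or below each mean log2 ratio over exposures in the 3 groups at 1/10 LC50, for members (solid) and all eligible probes (dashed). The horizontal axes are cut at -1 and 1. The member curve is shifted to negative ratios furthest under ZnO NP, where the median of member means is -0.17, against -0.04 under ZnSO4 and -0.08 under SiO2 NP.

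The groups at 1/10 LC50 were then compared with each other. Fitted values were lower under ZnO NP than under SiO2 NP at 76 of 96 members, against 50.3% of all probes, with a median difference of -0.12. None of the 96 was called (limma, adjusted p), where the share of all probes was 0.0%. At an unadjusted p under 0.05 ZnO NP was lower at 5 members, against 0.837% of all probes. It was higher at 1 member, and at 54 of all 5495 probes. The 4 ZnO NP exposures lay wholly below the 3 SiO2 NP exposures at 4 of 94 members, against 2.27% of eligible probes, and wholly above at 0, against 2.96%. ZnO NP was lower than ZnSO4 at 77 of 96 members, against 52.8% of all probes, with a median difference of -0.18. Of these contrasts none was called (share of all probes 0.0%), 2 members were lower at an unadjusted p under 0.05, against 0.801%, and the exposures did not overlap with ZnO NP below at 2 of 93 members, against 3.12%, and with ZnO NP above at 1, against 2.51%. ZnSO4 was lower than SiO2 NP at 41 of 96 members, against 46.2% of all probes, with a median difference of 0.03. Read as Cy5 over Cy3 that direction turns, with ZnSO4 lower at 56 of 96 (58.3%), against 54.2% of all probes, and a median difference of -0.02. None was called (share of all probes 0.0%) and 0 were lower at an unadjusted p under 0.05, against 0.692%. The ZnSO4 exposures lay wholly below the SiO2 NP exposures at 2 of 96 members, against 4.21% of eligible probes, and wholly above at 3, against 6.26%. A difference of this size could not be resolved for single members, since the median 95% interval reached 0.49 to either side for contrasts with ZnO NP and 0.51 for ZnSO4 minus SiO2 NP.

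The members with the lowest zinc medians, P9DC4 and P6DC6, had the same order of exposures within each group at 1/10 LC50. P9DC4 had -0.61, -1.33, -0.40 and -0.20 in the ZnO NP exposures at 1/10 LC50, and -1.30, -1.06 and -0.27 in the 3 valued at the LC25. It had -0.06, -0.45 and -0.24 under ZnSO4 at 1/10 LC50, and -1.11, -1.51, -0.30, -0.68 and -1.03 at the LC25. Under SiO2 NP it had 0.03, -0.49 and -0.15 at 1/10 LC50, and -0.12, 0.01, 0.09 and 0.003 at the LC25. P9DC4 was thus negative in every zinc exposure with a value, and between -0.12 and 0.09 in the SiO2 NP exposures at the LC25. Its second exposure was the lowest in each group at 1/10 LC50, SiO2 NP included. In limma's fit its ratio under ZnO NP at 1/10 LC50 was -0.73 ± 0.19 (SE, adjusted p = 0.370), and its difference from SiO2 NP was -0.53 ± 0.28 (SE, adjusted p = 0.999). Its 4 ZnO NP exposures at 1/10 LC50, read as Cy5 over Cy3, became -0.34, -0.07, 0.40 and 0.20.

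P9DC4 belonged to 9 members that moved together. Blocks of members were formed after the values were seen, by average linkage on the correlation of log2 ratios over the 10 exposures at 1/10 LC50, at a distance of 0.3. The first block held P9DC4, P6DC6, P4AA10, P9CC4 and 5 others, which were 9 of the 10 top-ranked members, and its probes came from 8 plates. Their pairwise r had a median of 0.92 over the 10 exposures (range 0.83 to 0.98) and 0.89 over all 23. The linkage grouped members by r over the 10 exposures, so high values there follow from the grouping, in every block. All 23 include those 10 and the LC25 exposures that chose the members, so neither r is a test. Of 4799 other eligible probes valued in all 10 exposures, 11 (0.229%) correlated with P9DC4 above 0.9, and 7 of these were members. Whether these probes share a transcript is not known, since no sequences or gene names were used here.

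Under the deposited direction the first block was negative under both forms of zinc at both levels. The mean of its exposure medians was -0.60 ± 0.46 under ZnO NP at 1/10 LC50 (SD, n = 4) and -0.90 ± 0.37 at the LC25 (SD, n = 4). Under ZnSO4 it was -0.25 ± 0.18 at 1/10 LC50 (SD, n = 3) and -0.90 ± 0.34 at the LC25 (SD, n = 5), and under SiO2 NP -0.21 ± 0.25 (SD, n = 3) and -0.07 ± 0.12 (SD, n = 4). The block median was negative on every zinc array of both dyes. It lay between -1.26 and -0.19 over the ZnO NP exposures at 1/10 LC50, between -0.45 and -0.11 under ZnSO4 and between -0.48 and 0.03 under SiO2 NP, so the ranges of all 3 groups overlapped at the lower level. Read as Cy5 over Cy3, its exposure medians under ZnO NP at 1/10 LC50 were -0.19, -0.01, 0.40 and 0.19, with a mean of 0.10 ± 0.25 (SD, n = 4), and under ZnSO4 at that level the mean was -0.02 ± 0.11 (SD, n = 3). At the LC25 the means under that reading were -0.54 ± 0.63 for ZnO NP (SD, n = 4) and -0.38 ± 0.92 for ZnSO4 (SD, n = 5), with exposures of both signs in each. Of the 9 members 6 still met the rule, against 18 of all 100.

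P4AA10, ranked 10, was negative in every zinc exposure and in every SiO2 NP exposure but one. It had -0.37, -1.19, -0.61 and -0.25 under ZnO NP at 1/10 LC50, and -1.39, -0.73, -0.50 and -1.10 at the LC25. It had -0.39, -0.37 and -0.19 under ZnSO4 at 1/10 LC50, and -0.44, -0.84, -0.64, -0.39 and -0.92 at the LC25. Under SiO2 NP it had -0.09, -0.72 and -0.31 at 1/10 LC50, which overlap both zinc groups, and -0.17, -0.13, 0.21 and -0.20 at the LC25. P4AA10 and P9CC4 were the members with negative means in all 6 groups whose median over groups was lowest. Their means under ZnO NP at 1/10 LC50, read as Cy5 over Cy3, were 0.23 and 0.12.

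**Figure D4:**
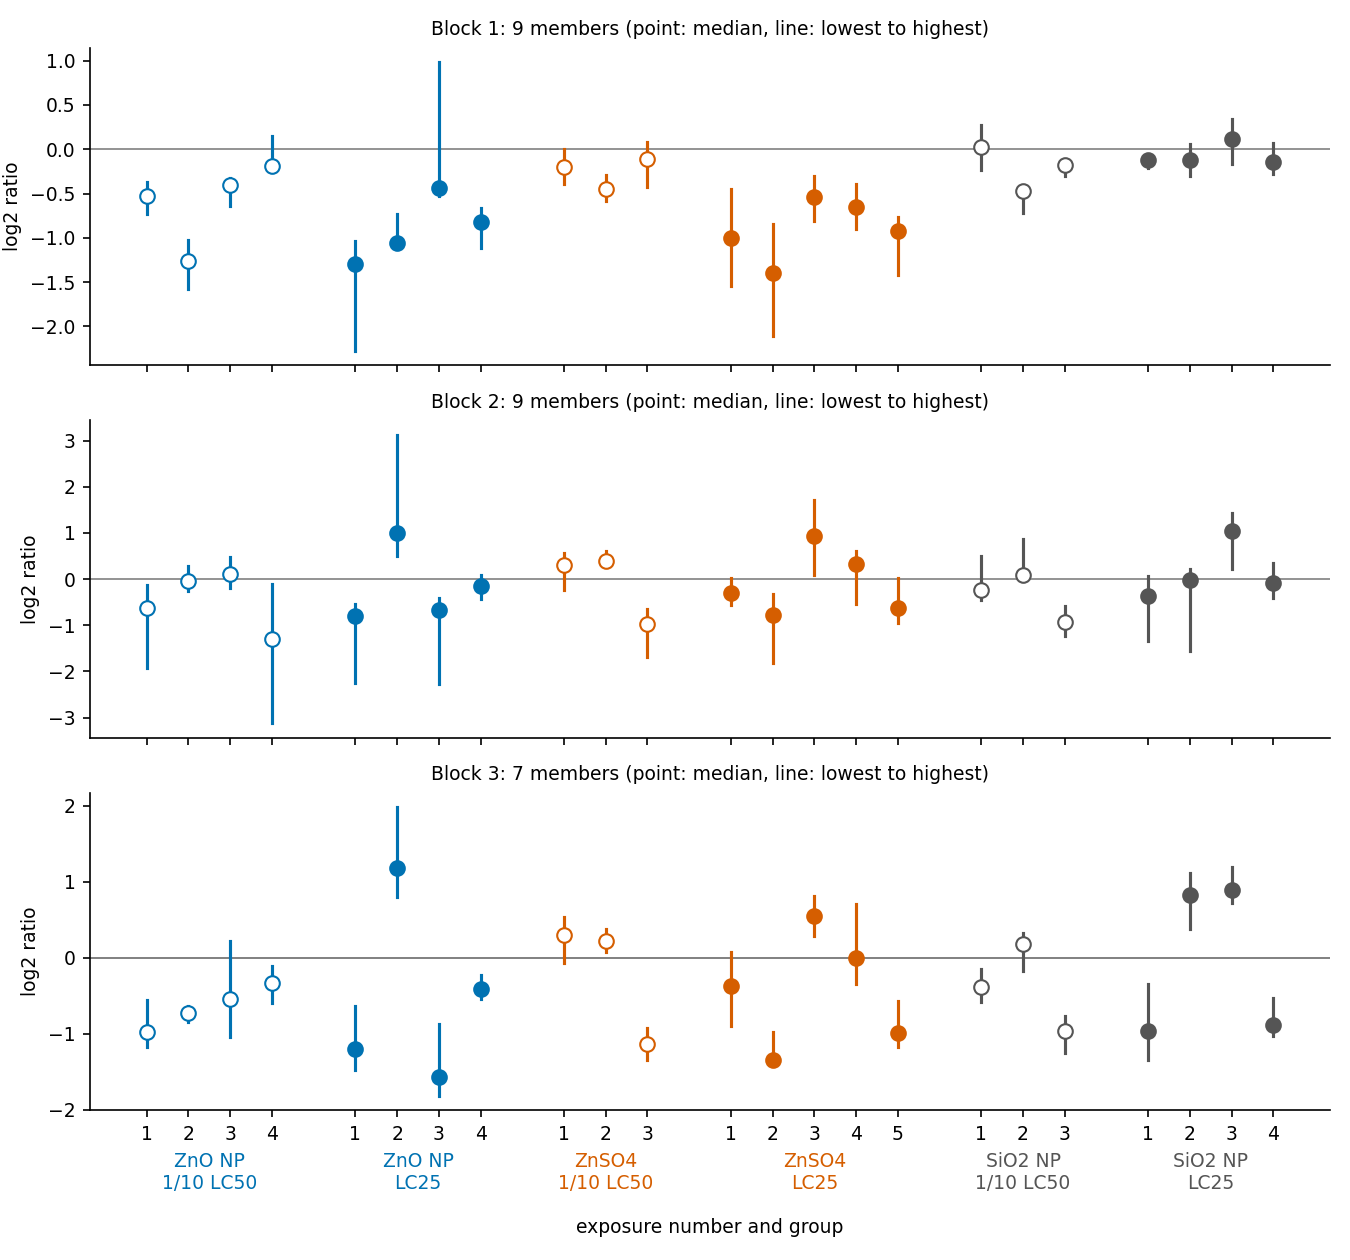
Log2 ratios of the 3 largest blocks of co-varying members (9, 9 and 7 probes) in each exposure. Points are medians over the block, lines run from its lowest to its highest member, and open and filled symbols are 1/10 LC50 and LC25. Under the deposited direction the median of the first block is negative in every zinc exposure, while the medians of blocks 2 and 3 change sign between exposures of one group.

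The other large blocks behaved differently, and were members although their sign was not stable within a group. The second block (9 members from 9 plates, ranks 36 to 92, median pairwise r 0.86 over the 10 exposures at 1/10 LC50) had exposure medians between -0.79 and 1.01 under ZnO NP at the LC25, between -0.79 and 0.92 under ZnSO4 and between -0.36 and 1.05 under SiO2 NP. The third (7 members from 6 plates, ranks 11 to 73, median pairwise r 0.89) ranged from -1.57 to 1.17, from -1.34 to 0.55 and from -0.97 to 0.89 in the same groups. Under the deposited direction the third block at 1/10 LC50 was negative in all 4 ZnO NP exposures, between -0.98 and -0.33. It ran from -1.14 to 0.30 under ZnSO4 and from -0.96 to 0.18 under SiO2 NP at that level, and both ranges overlapped that of ZnO NP. The second block at 1/10 LC50 ran from -1.29 to 0.12 under ZnO NP, from -0.98 to 0.39 under ZnSO4 and from -0.94 to 0.09 under SiO2 NP. In both blocks exposure 3 was the lowest under ZnSO4 and under SiO2 NP at that level. At the LC25 both dyes gave these swings of sign. The second block had array medians of 1.15 (Cy5) and 0.89 (Cy3) in ZnO NP exposure 2. In ZnO NP exposure 3 it had -1.02 (Cy5) and -0.66 (Cy3). Read as Cy5 over Cy3, 0 members of either block met the rule. The third block's medians in the ZnO NP exposures at 1/10 LC50 then became -0.21, 0.11, 0.54 and 0.33, with a mean of 0.19 ± 0.32 (SD, n = 4). The mean of the second block there became 0.22 ± 0.72 (SD, n = 4).

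P2AB9 of the second block had the lowest mean of all members under ZnO NP at 1/10 LC50, -1.29 ± 1.51 (SD, n = 4), from exposures of -1.93, -0.16, 0.04 and -3.13. At the LC25 its ZnO NP exposures were -2.25, 3.13, -2.27 and -0.34, so its membership rests on a median over exposures of both signs. P11CC7 of the third block was steadier at the lower level, with -0.98, -0.82, -0.68 and -0.59 under ZnO NP, against 0.13, 0.32 and -1.32 under ZnSO4 and -0.38, 0.25 and -1.07 under SiO2 NP. Its ZnO NP exposures overlapped both other groups. Neither its common sign nor its small spread held when values were read as Cy5 over Cy3, which gave -0.28, 0.11, 0.68 and 0.59 under ZnO NP, and the mean of P2AB9 then became 0.74 ± 1.59 (SD, n = 4). The adjusted p of P11CC7 and of P2AB9 under ZnO NP at 1/10 LC50 was 0.996 in limma's fit.

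The counts for ZnO NP at 1/10 LC50 were lower without the blocks and remained above the shares of eligible probes. Without the first block, 69 of 88 members had negative means (78.4%), and 12 of 87 fitted ratios were negative at an unadjusted p under 0.05. Without all 3 blocks, 53 of 72 had negative means (73.6%, against 47.8% of eligible probes), the exposure medians lay between -0.12 and -0.08, and 11 of 71 (15.5%) were negative at an unadjusted p under 0.05, against 2.29% of all probes. Under ZnSO4 the count without the 3 blocks was 37 of 73 (50.7%), against 43.4% of eligible probes, and under SiO2 NP 48 of 74 (64.9%), against 48.7%. The swapped arrays of ZnO NP exposure 1 at 1/10 LC50 correlated at r = -0.03 over the 70 members outside the blocks, and those of exposure 2 at r = 0.46 over 71.

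Most pairs of members did not move together. Over the 10 exposures at 1/10 LC50, the median pairwise r of members' deviations from their group means was 0.007 (93 members valued in all 10), and that of eligible probes was 0.01. The 33 members negative in every ZnO NP exposure at 1/10 LC50 had median means of -0.20 under ZnSO4 and -0.13 under SiO2 NP at that level, and of -0.43, -0.41 and -0.004 under ZnO NP, ZnSO4 and SiO2 NP at the LC25. The other 67 members had -0.02 and -0.04 at 1/10 LC50, and -0.32, -0.28 and -0.06 at the LC25. All these ratios were measured against unexposed RNA that the groups may have shared.

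Some members had positive means at the lower level. Under ZnO NP the highest were P13BB3, with 0.52, 0.36, 0.13 and 0.08, and P7CA7, with 0.11, 0.02, 0.39 and 0.24. Both were positive in all 4 ZnO NP exposures at 1/10 LC50 under the deposited direction. Under the Cy5 over Cy3 reading P13BB3 had 0.16, -0.21, -0.13 and -0.08, and P7CA7 was negative in all 4, between -0.39 and -0.14. At the LC25 of ZnO NP, P13BB3 averaged -0.28 ± 0.27 (SD, n = 3) and P7CA7 -0.32 ± 0.31 (SD, n = 4). P13BB3 had an unadjusted p of 0.0402 and an adjusted p of 0.996 in limma's fit at the lower level. Under ZnSO4 at 1/10 LC50 the highest means were 0.30 ± 0.37 at A1D14 and 0.25 ± 0.13 at A6D11, and the lowest -0.43 ± 0.23 at P8AE1 and -0.39 ± 0.49 at P9BB7 (SD, n = 3 each). P8AE1 was negative in all 3 exposures, at -0.47, -0.18 and -0.63, and A6D11 was positive in all 3, at 0.19, 0.16 and 0.40. Under SiO2 NP at 1/10 LC50 the highest means were 0.22 ± 0.20 at A6J16 and 0.21 ± 0.14 at P5CC11, and the lowest -0.54 ± 0.73 at A7H17 and -0.53 ± 0.32 at P9AG3 (SD, n = 3 each). With values as Cy5 over Cy3, the means under ZnSO4 were -0.01 at A1D14 and 0.04 at A6D11, and 0.16 at P8AE1 and -0.01 at P9BB7. Those under SiO2 NP were 0.005 at A6J16 and 0.003 at P5CC11, and -0.24 at A7H17 and 0.09 at P9AG3.

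On the array the members were spread widely. They came from 45 of 59 plates, with at most 6 on one plate, and 6 pairs lay in adjacent wells. Identifiers starting with P made up 84 of the 100 members, against 74.1% of eligible probes, and those starting with A the other 16. Values on all 36 arrays were present for 38 members, against 31.8% of eligible probes.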

How the data were processed

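The authors deposited 1 log ratio per probe and array, read here as log2 values. The base, numerator, scanner, background correction and normalization were not given in the sources used here. Array means lay between -0.021 and 0.015 and medians between -0.07 and 0.11, so the deposited values had been centred. Spot brightness was not used, and the number of arrays is the limit on precision that can be stated. All 36 columns matched a sample.

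Arrays of one exposure number were averaged, which gave 23 exposures (13 dye-swapped pairs, 10 single arrays), each counted as 1 replicate. Labels do not say that exposures came from separate cultures, so p-values measure the spread between these exposures. No 2 arrays held identical values. The 6 groups were fitted together with limma 3.58.1 (lmFit, eBayes) in R 4.3.3, with a dye term per exposure of +1 or -1 for single arrays and 0 for pairs, two-sided, with Benjamini-Hochberg adjustment over 5495 probes and a threshold of 0.05. A pair in which a probe had a value on 1 array kept its dye effect. The code was tested on simulated data.

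Members and lists were chosen with earlier results of these data known. Probes named are the 2 with the lowest less negative zinc median, the 2 on each side of the edge, the 2 lowest and 2 highest means per group at 1/10 LC50 among members valued in every exposure, any member called there, and the 2 with negative means in most groups. Gene lists could not be used without gene names. Exposures of one number in different groups at 1/10 LC50 had deviations correlated at -0.25 to 0.49 (9 pairs, median 0.14, 5 over 0.1). Those of different numbers correlated at -0.40 to 0.43 (24 pairs, median -0.04, 6 over 0.1). Whether exposures of one number were paired is not known. The main fit did not take numbers as pairing, and a fit with the number as replicate block is given below. Alternatives were array scaling, centring, dye term, direction, missing values, weights, random blocks, samples fitted and each exposure left out. Leaving out blocks of members or exposures whose swapped arrays correlated negatively was chosen after seeing the data.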

Additional observations from a re-analysis of the deposited data

Results flagged for a closer look

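Outliers were looked for in 71 sets of 4 or 5 exposures, which held the values of the named probes and the medians over members. The measure was the gap of the highest or lowest value to its nearest neighbour, relative to the range, and 3 outliers were found. Chance gives about 1 in 20. A6D11 had -0.181 in the fourth ZnO NP exposure at 1/10 LC50, against 0.16, 0.20 and 0.14 in the others, so its mean there of 0.08 rests on 3 exposures of one sign. A1N8, the last member inside the choice, had 0.684 in the first ZnSO4 exposure at the LC25, while the other 4 lay between -0.35 and -0.09. P4AA10 had 0.206 in the third SiO2 NP exposure at the LC25, while the other 3 lay between -0.20 and -0.13.

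At 2 members the ZnO NP exposures at 1/10 LC50 were all negative and the SiO2 NP exposures all positive, which is 2 of 94 members valued in every exposure of both groups (2.13%), against 37 of 4839 eligible probes (0.765%). The reverse occurred at 0 members and at 0.992% of eligible probes. P5CC11 had -0.27, -0.22, -0.05 and -0.82 under ZnO NP and 0.24, 0.05 and 0.32 under SiO2 NP, a difference of means of -0.547. A6J16 had -0.41, -0.13, -0.74 and -0.02 under ZnO NP and 0.45, 0.09 and 0.12 under SiO2 NP, a difference of means of -0.545. The opposition of signs itself was not tested. In limma's fit over all probes the differences had unadjusted p of 0.0302 and 0.0105 and adjusted p of 0.999 each. Read as Cy5 over Cy3, 0 members showed this opposition, against 0.372% of eligible probes. P5CC11 then had means of 0.24 under ZnO NP and 0.003 under SiO2 NP, and A6J16 had -0.48, -0.03, 0.74 and 0.02 under ZnO NP (mean 0.06) and a mean of 0.005 under SiO2 NP.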

How the results depend on the processing

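Of the 100 members, 63 still met the rule with a zinc limit of 0.3, 51 with a value required in every LC25 exposure, 18 when values were read as Cy5 over Cy3, and 69 to 94 with 1 exposure left out. Calls under ZnO NP at 1/10 LC50, 0 of 96, became 7 with all arrays unaveraged and the exposure as a random block (consensus correlation -0.0165), where 19 of all 5495 probes were called, and 10 with array quality weights, where 30 were. At that correlation the random-block fit counted swapped arrays of one exposure nearly as separate replicates. In the other 5 comparisons 0 members were called. Of all 5495 probes, ZnSO4 against unexposed had 12 called with the random block and 6 with quality weights. ZnO NP minus ZnSO4 had 0 and 1 in these fits, and the remaining comparisons had 0. With each exposure left out in turn the calls were 0 to 1, the 1 appearing without ZnO NP exposure 4, where 3 of 5480 probes were called. The lowest adjusted p of a member under ZnO NP ranged from 0.00187 to 0.999 over 24 settings.

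The numbers of members with fitted values below 0 (76, 60 and 70 under ZnO NP, ZnSO4 and SiO2 NP, then 76, 41 and 77 for ZnO NP minus SiO2 NP, ZnSO4 minus SiO2 NP and ZnO NP minus ZnSO4) became 39, 34, 43, 40, 20 and 41 where a value was required in every exposure, since 50 members were then tested. With 1 exposure left out they were 72 to 76, 48 to 67, 53 to 70, 67 to 76, 33 to 51 and 68 to 77. Without the 3 blocks they were 35 under ZnSO4 and 45 under SiO2 NP, of 71 tested. Read as Cy5 over Cy3, the count under SiO2 NP was 42, and under ZnO NP 64 (66.7%, against 54.1% of all probes). Of these 64, 6 had an unadjusted p under 0.05, which is 6.25% of the members tested, against 5.02% of all probes. The cause was not tested. With the exposure number as replicate block no member was called, and 65, 59, 58, 73, 41 and 77 lay below 0. In that fit 27 members (28.1%) were negative under ZnO NP at an unadjusted p under 0.05, against 3.49% of all probes. Positive at that limit were 3 of 96 members and 165 of all 5495 probes.

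The mean exposure median over members became 0.0598 under ZnO NP and 0.0114 under SiO2 NP read as Cy5 over Cy3, and -0.0482 under SiO2 NP with arrays scaled to one spread. With 1 exposure left out it was -0.17 to -0.14 under ZnO NP, -0.05 to 0.01 under ZnSO4 and -0.04 to -0.03 under SiO2 NP. Without exposures whose swapped arrays correlated negatively, ZnO NP had 76 of 96 fitted values below 0, ZnSO4 48 and SiO2 NP 66.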
